A study of Mus musculus with 28 samples.

Results

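Lungs of newborn mice that lack both HRas and NRas (double knockout, DKO) were set against lungs of newborn mice that lack NRas alone (NRas-KO). Both genotypes lack NRas, so the comparison asks which transcripts differ when HRas is lost as well. Arrays were chosen by their source labels, which gave 5 DKO and 3 NRas-KO arrays, 8 of the 28 arrays of the study. Each array held total RNA from the whole lung of 1 animal taken on postnatal day 0, and none of these 8 animals had been exposed to N-acetyl cysteine (NAC, an antioxidant). The other 20 arrays came from untreated Control and HRas-KO lungs (3 arrays each) and from the same 4 genotypes after NAC, given at 0.5% to the pregnant females (14 arrays by the sample labels). Strain, sex, the alleles and the extent of each deletion are not given in the sources used here, and neither is what the Control animals carry. The series title states that DKO mice die in respiratory distress.

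HRas and NRas are closely related small GTPases that sit at the inner face of the cell membrane. When growth factor receptors load them with GTP they switch on the RAF-MEK-ERK kinase cascade and the PI3K-AKT pathway. In the lung, growth factor signalling through Ras and ERK drives branching of the airways and guides the alveolar epithelium, and ETS-family transcription factors such as Etv5 are among the genes that ERK signalling induces. At birth the alveolar type 2 cells release surfactant, the type 1 cells form the gas exchange surface, and a dense capillary bed lies against them.

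Levels are log2 RMA values, which are relative to the other probes of an array set. In this report a difference is DKO minus NRas-KO on the log2 scale, a gene was called at an adjusted p under 0.05 in limma, and n counts animals. The values of the table ran from 2.278 to 13.55, and array medians from 5.252 to 5.415. Lung markers were bright on all 8 arrays: Sftpc read 13.05 to 13.23, the type 1 cell marker Ager 11.52 to 11.87, and the endothelial cadherin Cdh5 11.63 to 12.00. NRas-KO replicates correlated at 0.9841 to 0.9872, and the DKO replicates at 0.9747 to 0.9874. Xist, which is expressed from the inactive X chromosome of females, was high in NRas-KO replicates 1 and 2 (10.46 and 10.78) and DKO replicates 1 and 3 (10.36 and 9.92), and read 3.95 to 4.33 on the other 4 arrays. Neighbouring tissue differed between arrays. Mean deviations of 18 skeletal muscle genes were -0.08, 0.96 and -0.07 in NRas-KO and 0.99, -0.08, 0.28, -0.19 and 0.58 in DKO, so NRas-KO replicate 2 and DKO replicates 1 and 5 stood highest (called the muscle-rich arrays here). Sample titles end in an animal code, and no start of that code was shared between DKO and NRas-KO, so genotype and whatever the code marks cannot be told apart.

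Nras, the gene deleted in both genotypes, was read first as a check of the labels. Its probe set (17401117) read 7.77, 7.72 and 7.58 in NRas-KO and 7.74, 7.64, 7.40, 7.70 and 7.66 in DKO, against 8.24 ± 0.14 (SD, n = 3) in Control. The difference between DKO and NRas-KO was -0.06 ± 0.11 (SE, adjusted p = 0.86), and the groups overlapped. Hras was not analysed here, so the label that separates the groups was not checked on its own gene.

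Of 22180 genes, 1098 differed between DKO and NRas-KO, which is 4.95% of those tested. Of these, 710 (3.2%) were higher and 388 (1.75%) were lower in DKO. Called differences were mostly modest, with a median size of 0.55. Only 67 of the called genes differed by over 2-fold, and 640 by under 1.5-fold. The values of the 5 DKO and 3 NRas-KO arrays did not overlap in 2572 genes (11.6%; DKO higher in 6.78% and lower in 4.82%), of which 959 were also called. The excess of rises depended on the scaling: 64.7% of called genes were higher in DKO as deposited, and 53.9% (555 of 1029) after the arrays were quantile-normalized again. The NRas-KO arrays weighed on the count, which was 691, 500 and 647 without NRas-KO replicates 1, 2 and 3 (3.12%, 2.25% and 2.92%). It was 175 (0.789%) when the 3 muscle-rich arrays were left out together. That left DKO replicates 2, 3 and 4 against NRas-KO replicates 1 and 3. What part the smaller number of arrays had in that count, here and below, was not tested. With the skeletal muscle list as a covariate and all arrays kept, 1116 genes were called. A fit of the 8 arrays alone called 312. List counts below that leave out arrays are to be read against the lower shares in the same fits. Protein-coding genes made up 1028 of the called genes (5.42% of those tested).

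**Figure D1:**
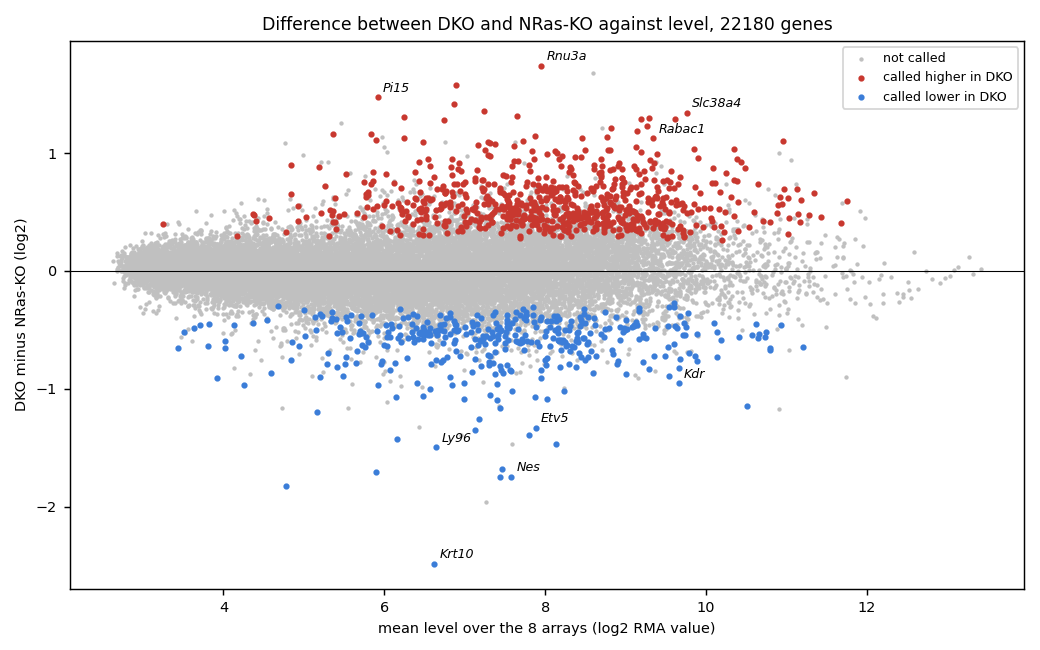
Difference between DKO and NRas-KO lungs (y axis, log2) against the mean level over the 8 arrays (x axis, log2 RMA value) for all 22180 genes; red points were called higher, blue points called lower and grey points not called. Called genes spread over most of the level range, and Krt10, whose groups overlap, has the lowest difference (-2.48).

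Genes induced by ERK signalling come next, since they lie downstream of the deleted proteins. Of 18 measured ERK feedback and target genes 2 fell, Etv5 and Ccnd1, and none rose (11.1% called, against 4.95% of all genes). The list's median was -0.13 against 0.01 over all genes. Etv5 read 8.82, 8.54 and 8.79 in NRas-KO and 7.27, 7.23, 7.26, 7.81 and 7.35 in DKO. The groups were far apart, and even DKO replicate 4, the highest of the DKO arrays, lay well under NRas-KO. The difference was -1.33 ± 0.15 (SE), a 2.51-fold lower level (adjusted p = 2.3e-05), and it stayed called under each of the 24 alternatives tried for this gene (-1.44 to -1.28). Ccnd1, which encodes the D-type cyclin that links growth factor signals to entry into the cell cycle, read 9.01, 8.70 and 8.90 in NRas-KO and 7.75, 8.01, 6.85, 8.23 and 8.39 in DKO. All DKO arrays lay below the NRas-KO arrays, DKO replicate 3 farthest, and the difference was -1.02 ± 0.22 (adjusted p = 0.0059). Unlike Etv5, Ccnd1 lost its call under 4 of the 24 alternatives (-1.55 to -0.69). These include the fit of the 8 arrays alone and that of the untreated arrays alone.

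The other 16 members of the list did not pass. Dusp6, an ERK phosphatase that ERK itself induces, differed by -0.15 ± 0.22 (adjusted p = 0.81), with DKO arrays on both sides of the NRas-KO range of 9.54 to 9.72. Spry2 (0.50, adjusted p = 0.3) and Spry4 (-0.61, adjusted p = 0.37), feedback inhibitors of receptor signalling, also had overlapping groups. Etv4, the close relative of Etv5, lay low in the table's range in both groups and differed by -0.11 (adjusted p = 0.72), without overlap. The feedback inhibitor Spry1 differed by -0.34 (adjusted p = 0.082), also without overlap, so that 4 of the 18 members lay lower in all DKO arrays, against 4.82% of all genes. Phlda1 missed the threshold narrowly (-0.67, adjusted p = 0.0501), and the ERK phosphatase Dusp4 differed by -0.52 (adjusted p = 0.17). Among 21 immediate early genes Egr3 (-0.63 ± 0.16, adjusted p = 0.024) and Ier2 (-0.69 ± 0.13, adjusted p = 0.0023) fell and none rose (9.52% called, median -0.19), and neither was called with the muscle-rich arrays left out. Only 1 was called without NRas-KO replicate 2, NRas-KO replicate 3 or DKO replicate 1. Upstream, 2 of 17 members of the Ras and RAF-MEK-ERK list rose (11.8% called), the Ras activator Sos2 (0.35) and the kinase Braf (0.30), with a median of 0.03. No member of that list was called when any 1 of the 3 NRas-KO arrays, DKO replicate 1 or DKO replicate 5 was left out. Egfr, the epidermal growth factor receptor, rose by 0.70 and Fgf1, a fibroblast growth factor, fell by 0.58. They were the only called members of 19 FGF and EGF genes (10.5%, median -0.02). Of 23 cell cycle genes 1 was called (4.35%, near the 4.95% of all genes), Mcm3 of the replicative helicase (-0.57).

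**Figure D2:**
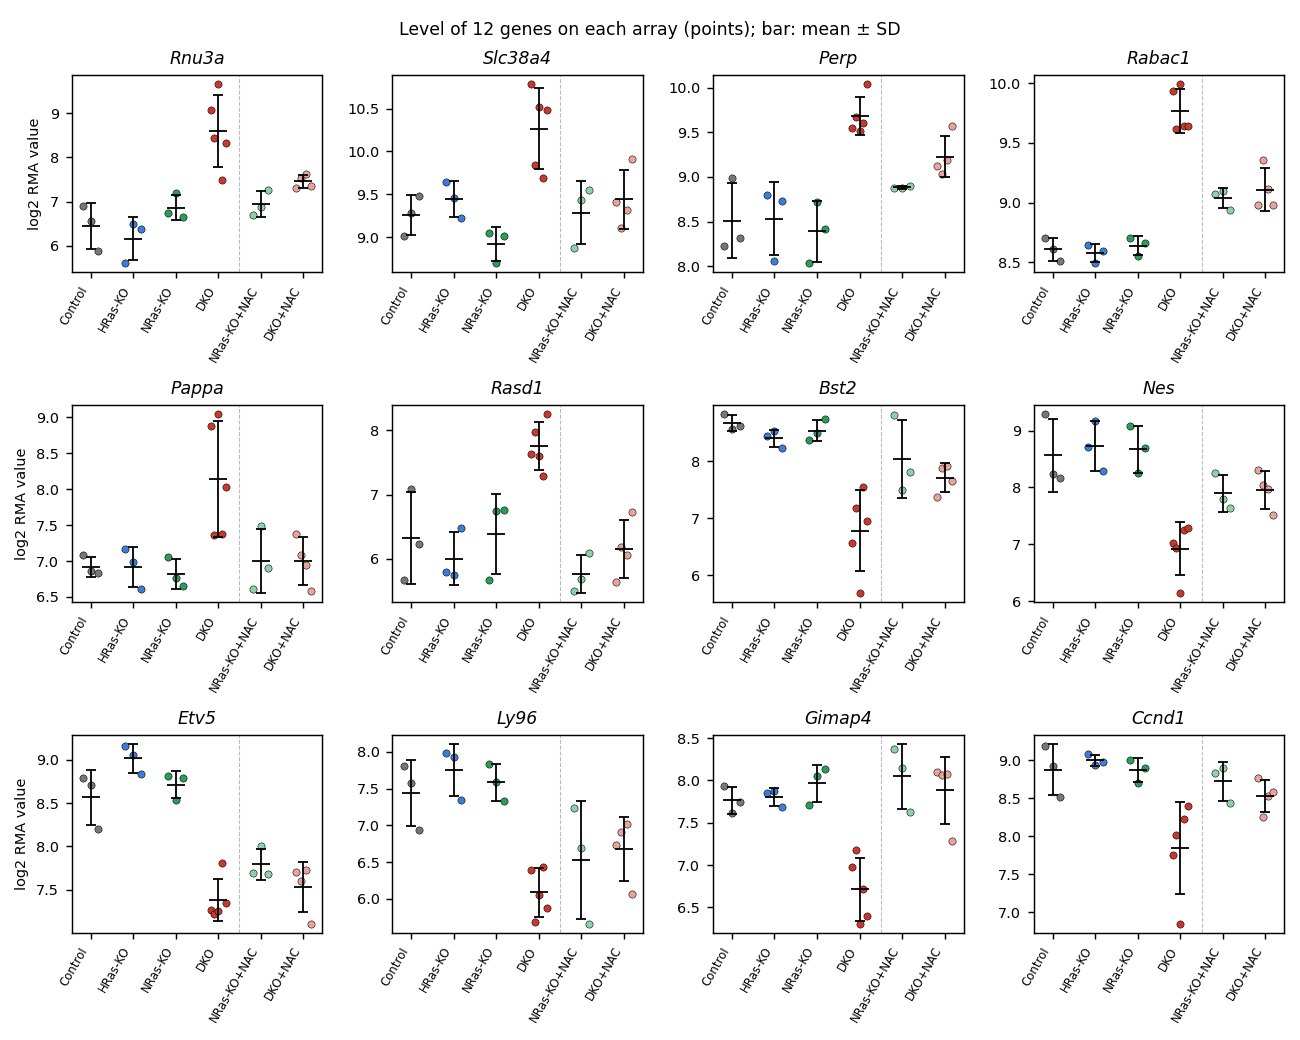
Level of 12 genes (y axis, log2 RMA value) on each array of 6 groups; points are arrays, and the bar gives the group mean ± SD. In each panel the 5 DKO points lie apart from the 3 NRas-KO points, and the dashed line separates the untreated groups from those after NAC.

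Several p53 target genes rose. Of 18 measured members 8 rose and 1 fell (50% called, against 4.95% of all genes), with a median of 0.20. Perp, a p53 target found at cell junctions, read 8.03, 8.72 and 8.42 in NRas-KO and 9.55, 9.67, 9.52, 9.60 and 10.05 in DKO. The DKO arrays lay close together and above every NRas-KO array, by 1.29 ± 0.18 on average (2.45-fold, adjusted p = 0.00014). Cdkn1a, which encodes the cell cycle inhibitor p21, read 10.56, 10.53 and 10.80 against 11.34, 11.35, 10.93, 11.25 and 11.37, a rise of 0.62 ± 0.12 (adjusted p = 0.0025). Sesn1, a stress-induced inhibitor of mTORC1 signalling, rose by 1.01 ± 0.20 (adjusted p = 0.0039), from 8.18, 8.74 and 8.75 to values between 9.27 and 10.19. The death receptors Tnfrsf10b (1.09) and Fas (0.79), the BH3-only protein Pmaip1 (0.67), the p53-induced nuclear protein Trp53inp1 (1.03) and Sesn2 (0.67) rose as well. Groups did not overlap in 7 of the 8 rises, Sesn2 being the exception. That is the usual share of called genes, 959 of 1098 over all genes. Phlda3, an inhibitor of AKT that p53 induces, fell by 0.59 ± 0.11. Called rises numbered 4 without NRas-KO replicate 1, 5 without NRas-KO replicate 2 and 3 with the muscle-rich arrays left out. With the 1 fall, 27.8%, 33.3% and 22.2% of the list were called there, against 3.12%, 2.25% and 0.789% of all genes. Of 21 PI3K-AKT and FOXO genes 3 rose (Sesn1, Sesn2 and Rictor, the mTORC2 subunit, at 0.72) and the insulin receptor substrate Irs1 fell by 0.55 (19% called, median 0.08). Irs1 was not called without NRas-KO replicate 1, NRas-KO replicate 2 or DKO replicate 3, nor with the muscle-rich arrays left out.

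Part of the interferon response genes fell in DKO. Interferons act through STAT and IRF factors that bind a shared element in the promoters of these genes, many of which restrict viruses. Of 34 measured members 7 fell and none rose (20.6% called), the median was -0.39, and in 18 members all DKO arrays lay below all NRas-KO arrays (against 4.82% of all genes). Bst2 (tetherin, which holds budding virus at the cell membrane) read 8.37, 8.48 and 8.74 in NRas-KO and 6.57, 7.17, 5.68, 7.54 and 6.95 in DKO. Even the highest DKO array was below the NRas-KO arrays, and the difference was -1.75 ± 0.28 (3.36-fold, adjusted p = 0.00049). Iigp1, an interferon-induced GTPase, fell by 1.35 ± 0.29 (adjusted p = 0.0075). Isg15, a ubiquitin-like modifier, read 6.55, 6.49 and 6.55 against 5.66, 5.73, 5.52, 5.74 and 5.16 and fell by 0.97 ± 0.23 (adjusted p = 0.014). Its call was lost under 7 of 24 alternatives, among them each fit that left out 1 NRas-KO array. Stat2, the interferon-specific STAT protein, read 7.77, 7.38 and 7.29 against 7.06, 6.88, 7.15, 6.83 and 6.27 and fell by 0.64 ± 0.18 (adjusted p = 0.035). Mx2 (-0.87), Rtp4 (-0.86) and Cmpk2 (-0.56) were the other called members. List means were 0.24, 0.13 and 0.10 in NRas-KO and -0.32, -0.18, -0.30, -0.30 and -0.42 in DKO, without overlap. The number of calls depended on the NRas-KO arrays, as the count over all genes did. Without NRas-KO replicate 1 it was 2 (Bst2 and Iigp1, so neither Isg15 nor Stat2), without replicate 2 it was 2 and without replicate 3 it was 4. These are 5.88%, 5.88% and 11.8% of the list, against 3.12%, 2.25% and 2.92% of all genes in the same fits. In the arrays high in Xist 3 were called (8.82%, against 5.1% of all genes). With the muscle-rich arrays left out 1 was called (2.94%, against 0.789%). Macrophage genes (0 of 19), lymphocyte genes (0 of 13) and genes of antigen presentation (0 of 14) had no called member, against 4.95% of all genes. Lists this short can hold 0 calls at that share, so these counts do not show that the genes were unchanged. Medians were -0.10, -0.01 and -0.14, and of the antigen presentation genes 10 were lower and 4 higher in DKO. In whole lung, fewer cells of a type and less RNA per cell cannot be told apart.

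Promoters of called members were read for the interferon-stimulated response element, here the letters GAAANNGAAA on either strand. The window was the 250 bases before and 50 after each gene's start (RefSeq, GRCm38.p6). Of the 7 called members 4 have a promoter in RefSeq, and the 3 with a match are printed 5′ to 3′ along the gene, with all matches in capitals, overlapping ones included.
Bst2: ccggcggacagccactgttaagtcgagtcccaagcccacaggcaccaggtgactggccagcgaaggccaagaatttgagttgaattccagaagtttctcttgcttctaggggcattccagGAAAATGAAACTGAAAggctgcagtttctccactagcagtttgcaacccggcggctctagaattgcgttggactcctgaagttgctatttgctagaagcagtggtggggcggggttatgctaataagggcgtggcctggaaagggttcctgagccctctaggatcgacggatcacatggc
Isg15: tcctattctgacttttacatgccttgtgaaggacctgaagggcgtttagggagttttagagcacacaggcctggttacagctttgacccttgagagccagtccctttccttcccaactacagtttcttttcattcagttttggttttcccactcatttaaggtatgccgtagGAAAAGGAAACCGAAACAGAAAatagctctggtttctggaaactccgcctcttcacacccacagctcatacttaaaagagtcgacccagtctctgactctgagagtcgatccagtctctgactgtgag
Stat2: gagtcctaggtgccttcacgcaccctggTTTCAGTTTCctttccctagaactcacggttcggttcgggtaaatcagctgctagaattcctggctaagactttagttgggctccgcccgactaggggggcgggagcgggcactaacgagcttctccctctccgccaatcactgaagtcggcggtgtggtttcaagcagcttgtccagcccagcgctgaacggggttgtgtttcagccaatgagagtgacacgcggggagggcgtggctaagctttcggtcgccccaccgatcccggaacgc

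The windows are chr8:71537423-71537722 (minus strand) for Bst2, chr4:156200769-156201068 (minus) for Isg15 and chr10:128270248-128270547 (plus) for Stat2. Overlapping matches begin at positions -130 and -124 from the gene's start in Bst2 and at -78, -72 and -66 in Isg15. The 1 match in Stat2 begins at -222, where the element lies on the other strand. Of 25 interferon genes with a RefSeq promoter 14 (56%) held a match, against 3.99% of all 27025 genes with one. The list was written from genes known to respond to interferon, so this share says nothing about DKO against NRas-KO. Among all genes called lower in DKO 17 of 276 (6.16%) held it, the 3 printed genes included, and among those called higher 18 of 547 (3.29%). A match is a stretch of letters and was not tested as a binding site.

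**Figure D3:**
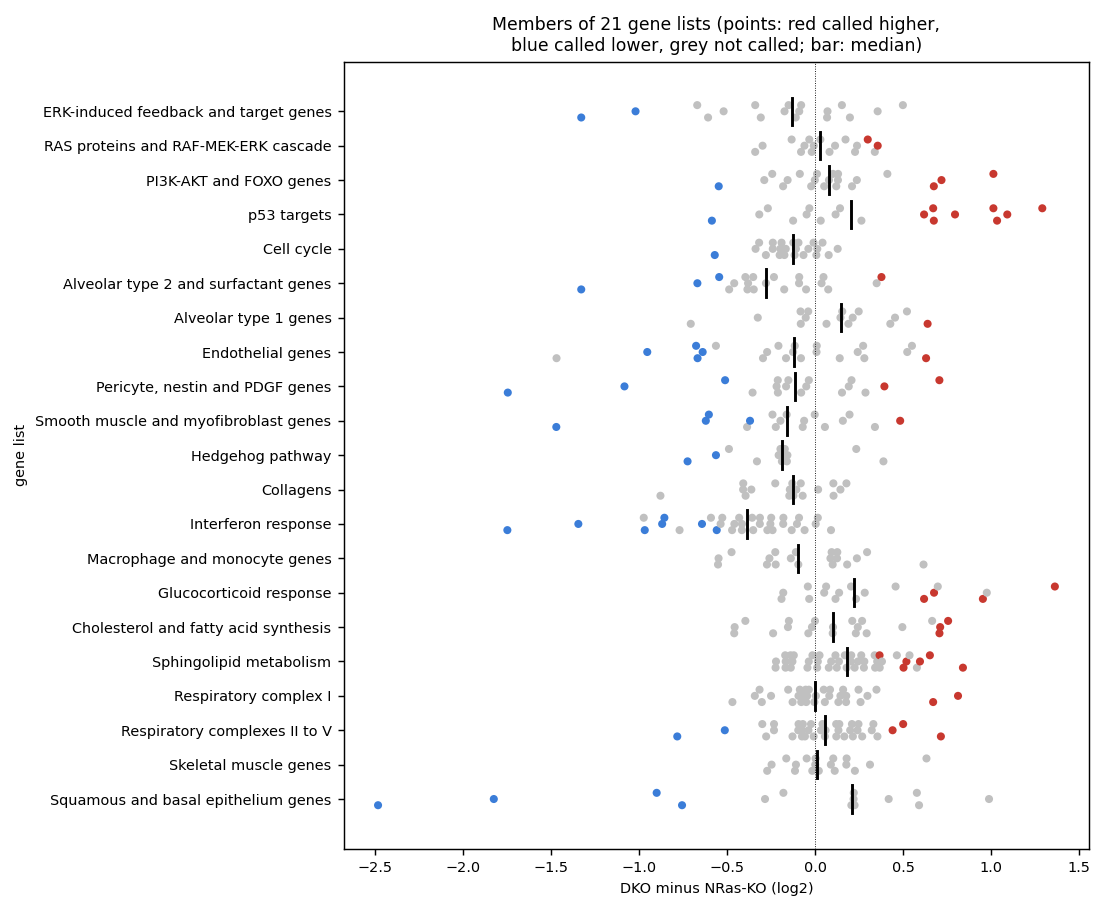
Difference between DKO and NRas-KO (x axis, log2) for the measured members of 21 gene lists (y axis); red members were called higher, blue called lower and grey not called, and the black bar is the list's median. The bar of the interferon list (-0.39) lies farthest to the left and that of the glucocorticoid list (0.22) farthest to the right among these lists.

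In the epithelium, alveolar type 2 genes were mixed. Of 21 members 3 fell and 1 rose (19% called), with a median of -0.28. Muc1, an apical mucin, read 11.35, 11.15 and 11.15 in NRas-KO and 10.40, 10.69, 10.37, 10.72 and 10.56 in DKO (-0.67 ± 0.11, adjusted p = 0.0006), and Lamp3, a protein of the lamellar bodies that store surfactant, fell by 0.55 ± 0.15 (adjusted p = 0.03). Etv5 is the third. Napsa, the protease that processes surfactant protein B, rose by 0.38 ± 0.09 (adjusted p = 0.017). Sftpc, the gene of surfactant protein C, differed by little (0.04 ± 0.07, adjusted p = 0.86). List means were 0.19, 0.07 and 0.14 in NRas-KO and -0.34, 0.02, -0.28, 0.06 and -0.08 in DKO, so that DKO replicates 1 and 3, the DKO arrays high in Xist, stood lowest. In the arrays high in Xist alone 7 members of the list fell and 1 rose (38.1% called). Without NRas-KO replicate 2, and with the muscle-rich arrays left out, 2 fell and none rose. Among 16 type 1 genes 1 rose (6.25%, near the share of all genes), Krt7 (0.64 ± 0.12, adjusted p = 0.0017). Sox9, a transcription factor of the distal progenitors, fell by 0.68 (adjusted p = 0.012), and Cyp2b10, a cytochrome P450 of club cells, rose from 6.52, 6.01 and 5.31 to values between 6.58 and 7.82 (1.28 ± 0.28, adjusted p = 0.0075). Foxj1, the regulator of motile cilia, fell by 0.45, and Scnn1g, a subunit of the epithelial sodium channel that clears lung liquid, rose by 0.56. Sox9, Cyp2b10, Foxj1 and Scnn1g were each the only called gene of their list. The lists were 15 epithelial transcription factor and progenitor genes (6.67%), 13 club (7.69%), 14 ciliated (7.14%) and 13 transport genes (7.69%), against 4.95% of all genes. The club markers Scgb1a1 (-0.19), Scgb3a2 (-0.09) and Cyp2f2 (0.44) were not called.

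Endothelial genes included 4 falls and 1 rise among 22 (22.7% called, median -0.12). Kdr, the main receptor for vascular endothelial growth factor, read 10.30, 10.20 and 10.26 in NRas-KO and 9.02, 9.59, 8.81, 9.75 and 9.33 in DKO. No DKO array reached the NRas-KO range, and the difference was -0.95 ± 0.15 (1.94-fold, adjusted p = 0.00036). The receptor Tie1 (-0.67), the ETS factor Erg (-0.68) and the diaphragm protein Plvap (-0.64) also fell, while the angiopoietin receptor Tek rose by 0.63 ± 0.14 (adjusted p = 0.0066) from 9.10, 9.13 and 9.09 to values between 9.32 and 10.30. Tmem100, a membrane protein of lung endothelium, was among the 15 largest rises (1.29 ± 0.26, adjusted p = 0.004). It read 8.76 to 8.86 in NRas-KO and 10.53, 9.68, 10.56, 9.59 and 10.12 in DKO. The endothelial list means were 0.17, 0.02 and 0.20 in NRas-KO and from -0.23 up to 0.08 in DKO, and they overlapped. Without NRas-KO replicate 3 the list had 2 falls and 2 rises.

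Among mural and mesenchymal genes Nes, which encodes the intermediate filament nestin, had the largest fall beside Bst2. It read 9.08, 8.25 and 8.69 in NRas-KO and 7.02, 6.93, 6.14, 7.25 and 7.29 in DKO (-1.75 ± 0.25, 3.36-fold, adjusted p = 0.00019), without overlap. Pdgfb, the growth factor that recruits pericytes, fell by 1.08 ± 0.27 (adjusted p = 0.019), although DKO replicate 4 (8.31) lay above the lowest NRas-KO array (8.20). Rgs5, a pericyte marker, rose by 0.71 ± 0.17 (adjusted p = 0.013), so 18 pericyte, nestin and PDGF genes held 2 rises and 3 falls (27.8% called, median -0.12). Without NRas-KO replicate 1, and with the muscle-rich arrays left out, the list had 2 falls and no rise, and without NRas-KO replicate 3 it had 1 of each. It had 2 falls and 1 rise without NRas-KO replicate 2 or DKO replicate 1. Of 17 smooth muscle and myofibroblast genes 4 fell and 1 rose (29.4% called, median -0.16). The falls numbered 2 without NRas-KO replicate 1, 2 without replicate 2 and 1 without replicate 3. Rises included, 17.6%, 11.8% and 11.8% were called there, against 3.12%, 2.25% and 2.92% of all genes. With the muscle-rich arrays left out no member was called. Nexn, an actin-binding protein of muscle and mesenchyme, read 8.88, 9.18 and 9.11 against 7.17, 8.08, 7.21, 7.58 and 7.88 (-1.47 ± 0.27, adjusted p = 0.0016), and Mylk, the kinase of the myosin light chain, fell by 0.62. Eln, which encodes elastin of the alveolar walls, fell from 11.73, 11.53 and 11.58 to 11.21, 10.74, 11.00, 10.76 and 11.12 (-0.65 ± 0.12, adjusted p = 0.0019), and the fibre protein Emilin1 fell by 0.60.

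The lung fibroblast regulator Tcf21 fell by 0.82 ± 0.18 (adjusted p = 0.0082), while the integrin ligand Npnt (0.66 ± 0.11, adjusted p = 0.00065) and the microfibril protein Mfap5 (0.95 ± 0.22, adjusted p = 0.013) rose. None of 18 collagen genes was called, with 13 lower and 5 higher in DKO and a median of -0.13. Of 13 Hedgehog pathway genes the receptor Ptch1 (-0.73 ± 0.12, adjusted p = 0.00095) and the transcription factor Gli1 (-0.56 ± 0.13, adjusted p = 0.013) fell, both being genes that the pathway itself induces (15.4% called, median -0.19). Only 1 member fell without NRas-KO replicate 2, without replicate 3 or with the muscle-rich arrays left out. List means were 0.07, 0.26 and 0.19 in NRas-KO and -0.09 to -0.02 in DKO. Vgll3, a cofactor of TEAD factors, fell by 1.09 ± 0.23 (adjusted p = 0.0053), and Bmp3, a secreted member of the bone morphogenetic protein family, by 1.16 ± 0.28 (adjusted p = 0.015). Bmp3 varied widely in DKO, from 6.22 to 7.73, and stood at 8.11 to 8.21 in NRas-KO.

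The most raised genes outside these lists came from several functions. Slc38a4, an amino acid transporter of the fetal and placental type, read 9.05, 8.70 and 9.02 in NRas-KO and 10.79, 9.85, 10.52, 9.69 and 10.48 in DKO (1.35 ± 0.21, 2.54-fold, adjusted p = 0.00047). Pappa, a protease that frees insulin-like growth factor from its binding proteins, read 6.65 to 7.05 against 8.89, 7.36, 9.05, 7.37 and 8.03 (1.32 ± 0.28, adjusted p = 0.0066). In both genes DKO replicates 1 and 3 were highest and replicates 2 and 4 lowest of the DKO arrays. Igf2, the fetal growth factor, fell by 0.46 ± 0.12 (adjusted p = 0.025). Pi15 (1.48), the tendon transcription factor Mkx (1.42), the receptor auxiliary protein Neto2 (1.31), the calcium-binding protein S100a6 (1.23), the cyclic nucleotide phosphodiesterase Pde2a (1.13) and Ms4a4a (1.09) completed the non-overlapping rises, together with the embryonic globin Hbb-y (1.11), whose DKO values were highest in replicates 4 and 5 (7.51 and 6.87). Erythroid genes held 2 rises among 8 (Hbb-y and Epb42; 25% called, median 0.32), none without NRas-KO replicate 2 and 1 without NRas-KO replicate 3 or DKO replicate 5, and their list means, at most 0.03 in NRas-KO, were 0.14 to 0.65 in the DKO arrays.

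Among the other large falls was Ly96, which encodes MD-2, the partner that lets toll-like receptors sense lipopolysaccharide. It read 7.83, 7.59 and 7.33 in NRas-KO and 6.39, 5.68, 6.05, 6.44 and 5.87 in DKO (2.82-fold lower, adjusted p = 0.0025). Gimap4, a GTPase of immune and endothelial cells, fell by 1.25 ± 0.19 (adjusted p = 0.00031) from 7.71, 8.05 and 8.13 to 6.97, 7.18, 6.31, 6.71 and 6.40, and was the 1 called member of 8 Gimap genes (median -0.08). The zinc finger protein Zfp781 (-1.42), the cytochrome oxidase subunit isoform Cox6b2 (-1.06), the amino acid transporter Slc7a10 (-1.05) and Ppan, a ribosome assembly factor (-1.02), completed the 15 largest falls.

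Rabac1 had the smallest p of the comparison. It encodes a Golgi protein that binds prenylated Rab GTPases. It read 8.70, 8.55 and 8.66 in NRas-KO and 9.94, 9.62, 9.998, 9.65 and 9.64 in DKO (1.13 ± 0.10, 2.19-fold, adjusted p = 6.9e-07). The gap between the groups was larger than the whole spread within either. Of 17 genes of Rab and Ras prenylation and traffic 1 other rose, Pggt1b, a subunit of the enzyme that attaches geranylgeranyl groups (0.50 ± 0.11, adjusted p = 0.0078), which made 11.8% called with a median of 0.15. Only 1 of the 17 rose without NRas-KO replicate 2 or with the muscle-rich arrays left out. Rasd1, a Ras-like GTPase induced by glucocorticoids, rose by 1.36 ± 0.30 (adjusted p = 0.0083), from 5.67, 6.74 and 6.76 to values between 7.29 and 8.26. Of 18 glucocorticoid response genes 4 rose and none fell (22.2% called, median 0.22): besides Rasd1 these were the chaperone partner Fkbp5 (0.67), the mTORC1 inhibitor Ddit4 (0.95) and Cdkn1a, which the p53 list also holds. Their list means were -0.14, -0.11 and -0.03 in NRas-KO and 0.14 to 0.39 in DKO. No member was called with the muscle-rich arrays left out.

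Sphingolipid metabolism and oxidative phosphorylation are named in the series title, which was written on these samples, so the directions of those lists are not independent evidence. Of 43 sphingolipid genes 6 rose and none fell (14% called, median 0.18). They were the ceramide synthase Cers5 (0.65 ± 0.11, adjusted p = 0.0012), the desaturase Degs1 (0.52), the ceramidases Acer2 (0.59) and Acer3 (0.84), the kinase Sphk1 (0.50) and the phosphatase Sgpp1 (0.37). Cers5 and Degs1 make ceramide, whereas Acer2 and Acer3 break it down. Cers5 read 7.54, 7.76 and 7.72 in NRas-KO and 8.39, 8.30, 8.63, 8.19 and 8.12 in DKO. With the muscle-rich arrays left out 1 of the 43 rose. Of 32 subunits of respiratory complex I 2 rose, Ndufa7 (0.67) and Ndufa11 (0.81), which is 6.25% and near the 4.95% of all genes, and the median was -0.00. Without NRas-KO replicate 1, 1 rose. Of 37 subunits of complexes II to V 3 rose (Uqcrfs1 0.50, Cyc1 0.44, Cox7b 0.71) and 2 fell (Sdhc -0.78, Atp5g2 -0.51), 13.5% in all, with a median of 0.05. These calls rested on single arrays: none was left without NRas-KO replicate 1, no rise without NRas-KO replicate 2, no fall without NRas-KO replicate 3 and 1 rise without DKO replicate 5. With the muscle-rich arrays left out neither complex I nor complexes II to V had a called member. Among 21 genes of cholesterol and fatty acid synthesis Pmvk (0.71), Fdft1 (0.71) and Sqle (0.75) rose, all enzymes of the route to cholesterol (14.3% called, median 0.10). None was called without NRas-KO replicate 2, without DKO replicate 1 or with the muscle-rich arrays left out. The count was 1 without NRas-KO replicate 1 or DKO replicate 3, and in the arrays high in Xist 7 rose and 1 fell.

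Part of the small nucleolar RNA rows rose in DKO. Of 80 small nucleolar RNA rows 16 rose and 1 fell (21.2% called), and the wider list of 94 small nuclear, nucleolar and Y RNA rows had a median of 0.32 and a 20.2% share called. These RNAs guide chemical modification of ribosomal RNA or take part in its processing. Rnu3a, a U3 small nucleolar RNA, was the largest rise of all genes under the naming rule. It read 6.74, 7.18 and 6.64 in NRas-KO and 9.07, 8.44, 9.68, 7.48 and 8.34 in DKO (1.74 ± 0.31, 3.35-fold, adjusted p = 0.0013). Snord65 (1.30) and Snord1b (1.19) had the largest rises among rows with Snord symbols, and Snora30 (-1.07) was the row that fell. List means were 0.06, -0.14 and 0.08 in NRas-KO and 0.37, 0.22, 0.78, 0.25 and 0.22 in DKO, DKO replicate 3 being far above the others. Of the 94 rows 18 rose, against 6 without NRas-KO replicate 2, 10 without NRas-KO replicate 3 and 2 with the muscle-rich arrays left out. In those fits 7.45%, 11.7% and 2.13% of the rows were called, against 2.25%, 2.92% and 0.789% of all genes. With the mean of these rows as a covariate, 515 genes were called in place of 1098. Copies of such RNAs share sequence and many lie in introns of other genes, so their probe sets may read more than 1 transcript.

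MicroRNA rows were not called more often than other genes. Of 478 rows 4 were called higher and 13 lower (3.56% called, against 4.95% of all genes). Their median was -0.03, against 0.01 over all genes. Whole-transcript probe sets read RNA from the locus, not the mature microRNA. Mature sequences of 7 microRNAs whose rows were called lower are shown to set their seeds (bases 2 to 8, in capitals) side by side, from RefSeq on GRCm38.p6.
mmu-miR-99a-5p: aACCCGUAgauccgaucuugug
mmu-miR-99b-5p: cACCCGUAgaaccgaccuugcg
mmu-let-7c-5p: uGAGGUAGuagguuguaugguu
mmu-miR-30c-5p: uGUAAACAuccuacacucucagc
mmu-miR-365-3p: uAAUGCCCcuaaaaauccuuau
mmu-miR-19a-3p: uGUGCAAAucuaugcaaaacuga
mmu-miR-34b-5p: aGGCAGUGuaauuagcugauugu

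In that build miR-99a lies at chr16:77598940-77598961 and let-7c at chr16:77599672-77599693, both on the plus strand and within 1 kb of each other, while miR-99b lies at chr17:17830194-17830215 (plus). miR-99a and miR-99b share the seed ACCCGUA, and the other 5 each have another. The Mir99a row read 5.44, 6.29 and 5.99 in NRas-KO and 3.98, 4.93, 4.07, 5.53 and 5.05 in DKO (-1.20 ± 0.28, adjusted p = 0.011), with DKO replicate 4 above the lowest NRas-KO array. Its neighbour Mirlet7c-1 read 4.52, 4.49 and 4.44 against 3.07, 3.52, 3.26, 4.61 and 3.44 (-0.90 ± 0.25, adjusted p = 0.032), and again DKO replicate 4 reached the NRas-KO level. Mir99b fell by 0.47, Mir365-1 by 0.72, Mir19a by 0.97, Mir30c-1 by 0.59 and Mir34b by 0.52, without overlap. Mir23b had the largest fall among non-overlapping microRNA rows. It read 8.30, 8.72 and 8.51 in NRas-KO and 5.98, 7.77, 6.08, 7.63 and 6.68 in DKO (-1.68 ± 0.27, adjusted p = 0.00049). DKO replicates 1 and 3 were lowest in it, as in the mean of all microRNA rows (-0.28 and -0.25, against 0.11, 0.09 and -0.05 in DKO replicates 2, 4 and 5).

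**Figure D4:**
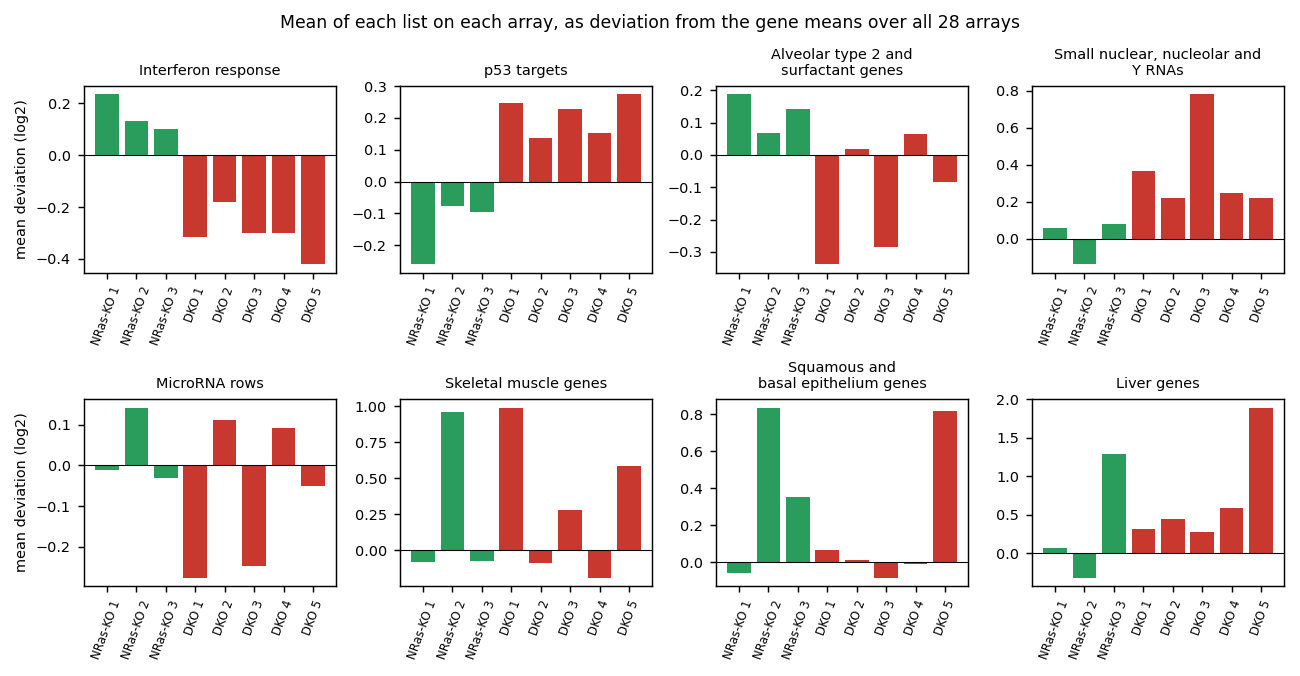
Mean of 8 gene lists on each of the 3 NRas-KO (green) and 5 DKO (red) arrays, as deviation (y axis, log2) from each gene's mean over all 28 arrays; scales differ between panels. Interferon and p53 means separate the groups, whereas skeletal muscle, squamous and liver means vary widely between arrays and overlap between the groups.

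Arrays with genes of other tissues were set beside these results. Skeletal muscle, heart muscle and liver lists had no called member (0 of 18, 0 of 15 and 0 of 10). Liver means were 0.06, -0.31 and 1.29 in NRas-KO and 0.31, 0.44, 0.27, 0.58 and 1.89 in DKO. The liver list's median difference was 0.35, with 9 members higher and 1 lower in DKO. Of 14 squamous and basal epithelium genes 4 were called lower (28.6% called), Krt10, Krt1, Krtdap and Lor, which are genes of cornifying skin. The list's median was 0.21. Only 1 was called without NRas-KO replicate 2. Krt10 read 5.78, 10.07 and 8.68 in NRas-KO and 5.56 to 5.83 in DKO. The call therefore came from NRas-KO replicates 2 and 3, while replicate 1 read as the DKO arrays did. In DKO replicate 5 other members of the list were high, Krt4 at 8.74 and Krt13 at 6.27 (chosen after their values were seen), against 4.67 and 4.44 or less on the other DKO arrays. The part of these tissues in the other results was not tested beyond the fits without the arrays or with the lists as covariates: 1116 genes were called with the skeletal muscle list and 1085 with the squamous list as a covariate.

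Not all DKO arrays departed from NRas-KO to the same degree. Over the 1098 called genes, DKO replicate 3 was the array farthest from the NRas-KO mean in 29.1%, replicate 5 in 27.4%, replicate 1 in 22.3%, replicate 4 in 12.5% and replicate 2 in 8.65%. The mean distance in the direction of the call was 0.663, 0.517, 0.659, 0.521 and 0.651 in replicates 1 to 5. Replicates 1, 2 and 3 share a code start, so this order does not follow it. In the arrays high in Xist alone (DKO replicates 1 and 3, NRas-KO replicates 1 and 2) the count was 1132, with 646 rises and 486 falls. In the arrays low in Xist (3 DKO arrays and 1 NRas-KO array) it was 39, with the lone NRas-KO array assumed to vary like the arrays of the other groups, so that count says little about stability.

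HRas loss on a background that has NRas was read from the remaining untreated groups. Between HRas-KO and Control, which share no array with the comparison above, limma called 0 of 22180 genes (0%). Only 190 had an unadjusted p under 0.05, far fewer than the 1109 expected by chance. All groups share 1 estimate of the spread in this fit. Median gene SDs were 0.115 in HRas-KO, 0.125 in Control, 0.123 in NRas-KO and 0.161 in DKO. In a fit of the HRas-KO and Control arrays alone 480 genes had a p under 0.05, and with array weights 690, again with 0 calls. The cause of this deficit was not tested, and 0 calls do not show that nothing differed between HRas-KO and Control. Of the 1098 genes 480 (43.7%) had the same sign there, against 47.8% of all genes, and 5 reached at least 50% of the size with the same sign. Etv5 differed by 0.45 between HRas-KO and Control, Rabac1 by -0.03, Perp by 0.02, Nes by 0.16 and Bst2 by -0.27.

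The difference between these differences was tested directly, as (DKO minus NRas-KO) minus (HRas-KO minus Control), and 50 genes passed (0.225%), 31 higher and 19 lower. Control, HRas-KO and NRas-KO arrays share code starts, while untreated DKO shares none with them. An effect of genotype and whatever the code marks therefore cannot be told apart here either. The 5 highest under the naming rule were Sesn1 (1.41), Mgat4a, an N-glycan branching enzyme (1.29), Perp (1.27), Rabac1 (1.16) and Ms4a4d (1.07). The 5 lowest were Nes (-1.91), Etv5 (-1.78), Gimap4 (-1.30), Gga1, an adaptor of vesicle traffic from the Golgi (-0.98), and Ptch1 (-0.96). Adjusted p-values were 0.00041 for Etv5, Rabac1 and Mgat4a and between 0.019 and 0.048 for the other 7. Single arrays moved this count. With Control replicates 1, 2 and 3 left out in turn it was 98, 23 and 10. It was 24 when HRas-KO replicate 2 was dropped, 25, 25 and 26 without the NRas-KO replicates, 94 without DKO replicate 4 and 33 without DKO replicate 5. It was 6 with the muscle-rich arrays left out.

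The genotype comparison could be read again in other animals, after NAC, with 4 DKO+NAC and 3 NRas-KO+NAC arrays. There limma called 0 of 22180 genes (0%), with 826 at an unadjusted p under 0.05, fewer than the 1109 expected by chance. DKO+NAC replicate 4 read 8.08 for Nras, above the other 3 (7.56 to 7.74), and no gene was called without it either. No gene was called with the animal code start, which 3 pairs of these arrays share, as a block (863 at p under 0.05). Signs were nevertheless shared in part: 765 of the 1098 genes (69.7%) had the same sign as in the untreated comparison, against 53.6% of all genes. Genes called higher kept their sign in 558 of 710 (78.6%), and genes called lower in 207 of 388 (53.4%). Of the 15 largest rises 14 were higher in DKO+NAC, and of the 15 largest falls 8 were lower. Sizes were small, with a median of 0.09 against 0.55 untreated, and 48 genes reached at least 50% of the untreated size with the same sign.

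Single genes showed this. Perp read 8.87, 8.88 and 8.90 in NRas-KO+NAC and 9.13, 9.03, 9.19 and 9.57 in DKO+NAC (0.34 ± 0.19), and Rnu3a differed by 0.52 ± 0.32. Rabac1 read 9.07, 9.09 and 8.94 in NRas-KO+NAC against 8.98, 9.36, 9.12 and 8.98 (0.07 ± 0.11), and Nes differed by 0.06 ± 0.26. Etv5 was 7.68 to 8.0 in NRas-KO+NAC and 7.70, 7.60, 7.72 and 7.11 in DKO+NAC (-0.26 ± 0.16). The Mirlet7c-1 row, lower in untreated DKO, was higher in DKO+NAC by 0.90 ± 0.26. The interferon list had a median of -0.08, the p53 list of 0.11, the glucocorticoid list of 0.15 and the sphingolipid list of 0.02 in the NAC arm. Tested as a difference between arms, 9 genes passed (0.0406%). They include Rabac1 (-1.06, adjusted p = 0.0035) and Rnh1, a ribonuclease inhibitor (-0.97, adjusted p = 0.017). The count was 1 without NRas-KO replicate 2 or NRas-KO+NAC replicate 3, and 20, 31, 40 and 5 without DKO replicates 2, 3, 4 and 5. It was 21 and 18 without DKO+NAC replicates 1 and 4.

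**Figure D5:**
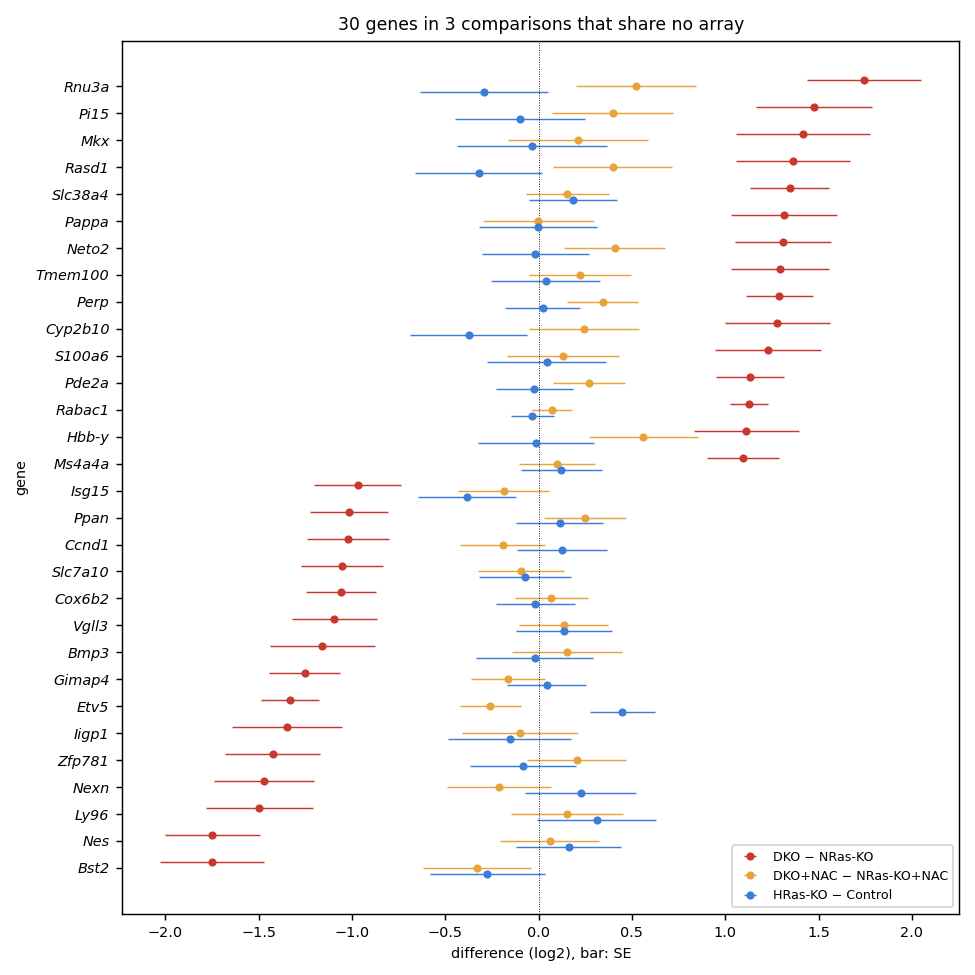
Differences (x axis, log2, bar SE) of the 15 largest rises and 15 largest falls (y axis) in DKO minus NRas-KO (red), in the same comparison after NAC (orange) and in HRas-KO minus Control (blue). Red points lie at 0.97 or more from 0 because the genes were chosen by them, while orange and blue points lie between -0.38 and 0.56.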

How the data were processed

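RNA was measured on 1-colour whole-transcript arrays, 1 per animal. The deposited log2 values were made by the authors with RMA (background correction, quantile normalization and probe summary) in affy, per the submitters' processing notes; versions, and whether all arrays were processed together, are not given in the sources used here. Of 41345 probe sets 23521 carry 1 symbol in the platform annotation, 1814 several and 16010 none listed. The brightest probe set stood for each of 22180 genes (1082 with several). A treatment note names 3 samples as exposed to NAC while the sample labels name 14; the labels were followed.

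All 28 arrays entered 1 linear model with a mean for each of 8 groups (limma 3.58.1, R 4.3.3; 20 residual and 5.946 prior degrees of freedom). Calls needed an adjusted p (Benjamini-Hochberg, across 22180 genes) under 0.05. The procedure was tested on simulated data. No 2 arrays were identical (highest of 378 correlations 0.99329). Depth does not apply to arrays: their number limits the precision.

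Gene lists (56, with 967 of 1051 written genes measured), the naming rule and the arrays compared were chosen with earlier results of these data known. Named genes are Nras, the 15 largest rises and 15 largest falls among called genes without overlap (predicted genes, microRNAs, Snor, Olfr and Vmn symbols and sex-linked genes left out), called members of lists, and the 5 highest and 5 lowest genes of the difference of differences. Lists were not tested as sets: their counts are read against the 4.95% of all genes called. Where arrays were left out, the share of all genes in the same fit applies (0.789% to 5.33%). A list's mean on an array averages its members' deviations from their means over 28 arrays. Alternatives changed 1 choice at a time: rows per gene, a filter on the dimmest 40%, normalization, moderation, weights, arrays fitted, blocks, covariates, a 1.5-fold minimum and each array left out. Fits by Xist level, without arrays rich in muscle genes, with the squamous list as covariate, with code starts as fixed blocks, and counts of called list members without arrays were chosen after seeing the data.

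Equal replicate numbers did not tie DKO to NRas-KO arrays (correlations of deviations 0.222, 0.0843 and -0.12), so the main fit used no block. The 3 pairs of DKO+NAC and NRas-KO+NAC arrays that share a code start did resemble each other (0.443, 0.366 and 0.435). The consensus correlation within a code start was 0.121. With the code start as a random block 805 genes were called in DKO against NRas-KO, in place of 1098. DKO replicates 1, 2 and 3 share a start, as do NRas-KO replicates 2 and 3, so animals within a group may not be independent.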

Additional observations from a re-analysis of the deposited data

Results flagged for a closer look

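In 97 groups of 4 or 5 values 5 single arrays stood apart from the rest of their group, and chance flags about 1 in 20 such groups. Etv5 read 7.81 in DKO replicate 4 against 7.23 to 7.35 in the other DKO arrays, still below NRas-KO. Gimap4 read 7.29 in DKO+NAC replicate 4 against 8.07 to 8.10 in the other 3. The mean of small nuclear, nucleolar and Y RNA rows was 0.78 in DKO replicate 3 and 0.22 to 0.37 elsewhere in DKO. The Hedgehog list mean was -0.0903 in DKO replicate 2 and -0.04 to -0.02 in the others, a narrow range. The squamous list mean was 0.82 in DKO replicate 5 and -0.08 to 0.07 in the others.

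The difference of differences passed in 50 genes, where genotype and whatever the animal code marks cannot be told apart. Among those named, Sesn1 (1.41), Mgat4a (1.29), Perp (1.27), Rabac1 (1.16) and Ms4a4d (1.07) were higher, and Nes (-1.91), Etv5 (-1.78), Gimap4 (-1.30), Gga1 (-0.98) and Ptch1 (-0.96) lower with NRas absent.

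DKO minus NRas-KO differed between the NAC and untreated arms in 9 genes, named here in full. The NAC arm was higher for AW549542 (1.14), Six5 (1.05), Olfr10 (1.00) and the arrestin Arrb2 (0.89), and lower for the ubiquitin ligase Marchf5 (-1.06), Rabac1 (-1.06), Vat1 (-1.03), Rnh1 (-0.97) and the phosphorylase kinase subunit Phkg2 (-0.93).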

How the results depend on the processing

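Of 24 alternatives to the 30 largest changes none turned a direction. These genes were chosen for groups without overlap, so a fit that only leaves out DKO or NRas-KO arrays could not turn one. Etv5, Perp and Rabac1 were called under all 24. DKO against NRas-KO gave 1098 genes, 312 in a fit of its 8 arrays alone, 515 with small RNA rows as a covariate, 458 at 1.5-fold or more, 39 in the arrays low in Xist (1 NRas-KO array, whose spread comes from the other groups), 175 without the muscle-rich arrays, and 500 to 1183 with 1 array left out. The difference of differences gave 50 genes, 85 without the dimmest 40%, 321 with array weights, 12 in its own groups or arm alone, 28 with the muscle and 18 with the small RNA covariate, 6 without the muscle-rich arrays, and 10 to 98 with 1 array left out. The difference between arms gave 9 genes, 25 after quantile normalization and with Xist as a covariate, 38 with array weights, 26 with the squamous covariate, 0 in its own groups alone (1642 at p under 0.05), and 1 to 40 with 1 array left out. HRas-KO against Control and the NAC comparison had 0 calls under every alternative run. With a replicate block the 5 counts were 812, 50, 0, 0 and 13, and the numbers do not pair the arrays. In the 8-array fit 17 of the 30 genes kept their call, and without the muscle-rich arrays 12 did. Causes of these shifts were not tested. The array number, with 3 NRas-KO animals, limits all counts.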

Other observations

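Genes beside the deleted loci were read separately, in RefSeq order. Of 40 measured neighbours of Hras, 20 on each side, 4 were called (10%, against 4.95% of all genes): 2 were higher in DKO, Rnh1 (0.95) and the lipase gene Pnpla2 (0.53), and 2 were lower, the interferon-induced membrane protein genes Ifitm3 (-0.56) and Ifitm2 (-0.38). Of 40 neighbours of Nras 3 were called (7.5%), all higher: the splicing factor gene Bcas2 (0.45), the DNA repair gene Dclre1b (0.71) and Rsbn1 (0.38). Rnh1 and Lrrc56 are the first measured genes on the 2 sides of Hras, and Lrrc56 was not called (-0.07, adjusted p = 0.91). Rnh1 read 8.73, 8.48 and 8.92 in NRas-KO and 9.58, 9.75, 9.41, 9.65 and 9.87 in DKO, and 0.03 was its difference between HRas-KO and Control. In the NAC arm it differed by -0.02.

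Among genes of other roles, the oxidative stress gene Nqo1 (0.72), the glucose transporter Slc2a1 (0.67), the mitophagy receptor Bnip3 (0.63), the lymphatic hyaluronan receptor Lyve1 (0.59) and the toll-like receptor Tlr8 (0.75) rose. Id1, a target of bone morphogenetic protein signalling, fell by 0.57, and the chaperone Pdia6 by 0.57. The imprinted gene Peg3 rose by 0.70. Each was 1 of at most 2 called genes in 1 direction of its list.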
